A study of Rattus norvegicus with 2 samples.

Results

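Apolipoproteins and lipoprotein handling genes were compared between untreated C6 glioma and the neuron-like cells, called SMiNs, that the study induced from it with small molecules. The group holds 9 named genes, Apoe, Apoc1, Apoc2, Apoc4, Apod, Clu, Lpl, Abca1 and Abcg1, taken by symbol from the 18166 genes named in the array's annotation. Of these, 8 were measured, each by 1 probe set, and Apod was not analysed here. The genes were chosen with their values on these arrays known, so the values below are a description and no test was made on them. C6 glioma is a rat glial tumor cell line, kept in serum-containing medium for the first sample. SMiNs are the same line after 35 days of treatment with an inhibitor of the kinase GSK3, CHIR99021, at 20 μM, and with forskolin at 100 μM, which raises cAMP through adenylyl cyclase. The labels repeat the treatment and the serum medium for both samples, and the sample titles and the study's methods separate them. By those methods, SMiNs were grown on Matrigel in serum-free neural induction medium with N2, B27, BDNF and GDNF. Small molecules, medium, coating and time in culture therefore differ together between the samples and cannot be told apart.

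Apolipoproteins are the protein part of lipoprotein particles, which carry cholesterol and triglyceride between cells. In the brain, glial cells make and lipidate apoE-containing particles, and neurons take them up through receptors of the LDL receptor family. ABCA1 and ABCG1 move cholesterol out of the cell onto such particles, and lipoprotein lipase releases fatty acids from them. In macrophages of mouse and human, the sterol-sensing nuclear receptor LXR raises transcription of Abca1, Abcg1, Apoe and the Apoc genes.

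Each condition had 1 Affymetrix array and no replicate, so no p-value is given and a fold describes these 2 arrays only. Values are log2 signals as deposited, with medians over 36685 probe sets of 4.79 for C6 glioma and 4.85 for SMiNs. Because probe sets differ in brightness, levels were not compared between genes, and each gene was compared with itself across the arrays. Background was read from 1358 probe sets of olfactory and vomeronasal receptor genes, taken as silent in these cells, and their 95th percentile, 4.79 for C6 glioma and 4.89 for SMiNs, is called the floor. From C6 glioma to SMiNs, 59 of the 1358 rose past 2-fold and 4 fell past it. A rise past 2-fold was therefore also met among probe sets taken as silent. Their share was close to that of all named genes, 776 of 18166 in the deposited values. Where the dimmer value was under the floor, the floor replaced it and the fold is a lower bound, written "at least". The glioma marker Pdgfra was 16.6-fold lower in SMiNs, while the precursor marker Olig2 had 5.29 and 5.29. Of 5 neuron markers, 1 passed 2-fold, the neuronal tubulin gene Tubb3, which was 2.24-fold higher in SMiNs. Map2 had 8.44 in C6 glioma and 8.58 in SMiNs, and Snap25 had 5.72 and 6.22. Syn1 had 4.78 and 4.90, and Rbfox3 had 4.94 and 4.90.

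SMiNs had a signal at least 2-fold above that of C6 glioma for 4 of the 8 measured genes, Apoc4, Apoc1, Apoc2 and Abca1, and a signal 2-fold below it for 0. With the floor applied, each of the 4 was still past 2-fold. In the deposited values 4.27% of the named genes passed 2-fold upward and 8.12% downward, and 3.09% passed it upward with the floor applied. All 4 were also at least 4-fold higher in the deposited values, where 0.633% of named genes were. Because the genes were picked with these values known, nothing is read from the count against these shares. The other 4 genes, Apoe, Clu, Lpl and Abcg1, differed by -0.71 to 0.37 on the log2 scale. The median difference of the 8 genes was 1.36 and that of all named genes was 0.00.

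**Figure D1:**
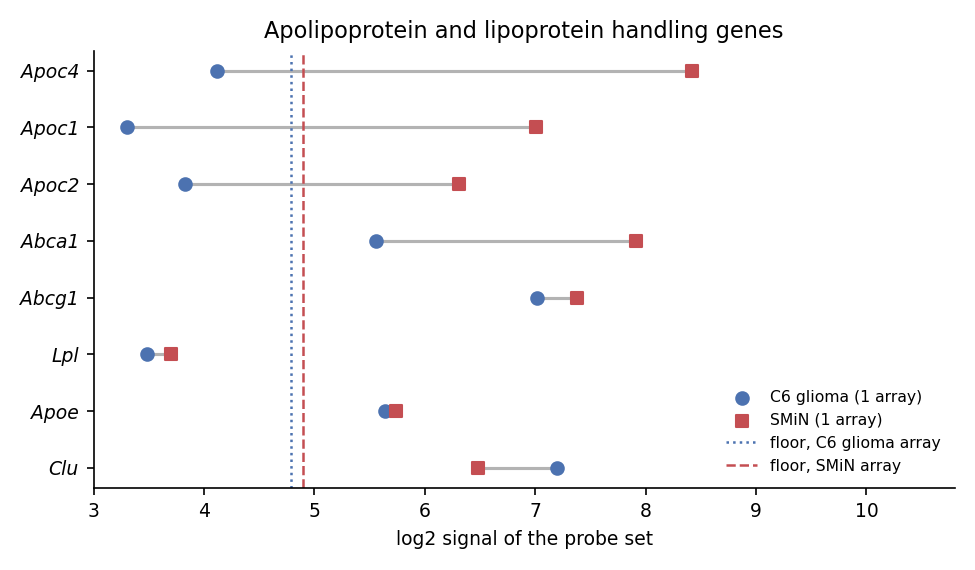
Log2 signal (x axis) of the 8 measured genes (y axis, ordered by difference) on the C6 glioma array (circles) and the SMiN array (squares), 1 array each, with the floor of each array as a vertical line. Apoc4, Apoc1 and Apoc2 lie below the floor in C6 glioma and above it in SMiNs, Abca1 and Abcg1 lie above it on both, and Lpl lies below it on both.

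The 3 Apoc genes encode small exchangeable apolipoproteins, carried mainly on triglyceride-rich particles, and they lie beside Apoe on chromosome 1 in the order Apoc2, Apoc4, Apoc1, Apoe (reference assembly GRCr8). For Apoc4, a minor component of very low density lipoprotein, the C6 glioma array gave 4.12 on the log2 scale, under the floor, and the SMiN array gave 8.42. This was at least 12.3-fold higher, and its difference of 4.29 was number 12 from the top of 18166 named genes. Apoc1, which restrains lipoprotein lipase and particle uptake, gave 3.31 in untreated and 7.01 in treated cells, at least 4.65-fold higher. Its difference of 3.70 was number 20 from the top. Apoc2, the cofactor that lipoprotein lipase needs, gave 3.83 and 6.31, at least 2.87-fold higher, and its difference of 2.48 was number 73. The Apoc1 signal in C6 glioma was the farthest of these below the floor, so its deposited difference of 3.70 and its bound are far apart. In C6 glioma the signal of each Apoc gene cannot be told from that of the receptor probe sets.

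Apoe, the main apolipoprotein of brain particles and the fourth gene of this cluster, gave a log2 signal of 5.64 in untreated and 5.74 in treated cells. Both values lay above the floor, and the difference was 0.10, a 1.07-fold higher signal. The Apoc genes thus stood apart between the arrays by 2.48 to 4.29 on the log2 scale, and their neighbor Apoe by 0.10. The difference between Apoe and the Apoc genes has no replicate check.

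The genes around the cluster were read in reference order, 5 on each side. Of these 10 genes, 9 were measured and 0 differed by at least 2-fold, with differences from -0.37 to 0.63. Of the 9, 1 lay below the floor on both arrays, Cblc. Its deposited value was 4.54 on each, which is not read as an unchanged transcript. On the Apoc2 side, the nearest measured gene was Clptm1, a membrane protein gene, at 9.45 in untreated and 9.89 in treated cells. On the Apoe side, the next gene was Tomm40, which encodes the import pore of the outer mitochondrial membrane, with 8.56 and 8.19. Nectin2, a cell adhesion molecule, had the highest difference of the 9, with 6.24 in C6 glioma and 6.87 in SMiNs. Relb, an NF-kappaB subunit, had 5.18 and 5.62. Among the cluster genes and these neighbors, a difference of at least 2-fold was seen only for the 3 adjacent Apoc genes.

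**Figure D2:**
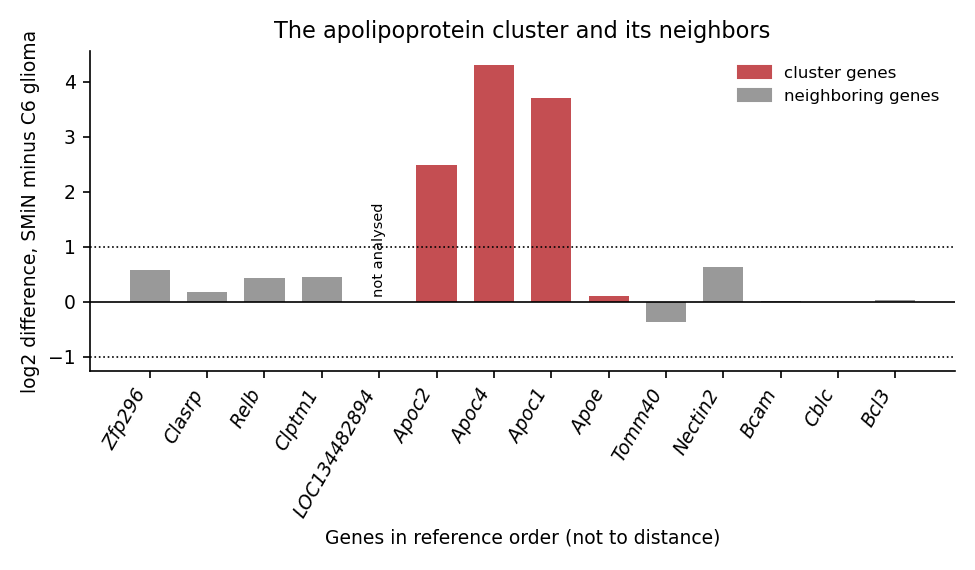
Difference in log2 signal, SMiN minus C6 glioma (y axis), for the cluster genes and 5 genes on each side in reference order (x axis, not to distance), from 1 array per condition; dotted lines mark 2-fold. The 3 Apoc genes lie between 2.48 and 4.29, Apoe is at 0.10, and the measured neighbors lie between -0.37 and 0.63.

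Abca1, the transporter that loads cholesterol and phospholipid onto lipid-poor apolipoproteins, gave 5.56 for C6 glioma and 7.91 for SMiNs on the log2 scale. Both values were above the floor, and the signal was 5.10-fold higher in SMiNs, number 83 from the top. It was the only gene of the 4 with a measurable signal on both arrays, so its fold is a measured value and not a bound. Abcg1, which passes cholesterol on to particles that already carry lipid, had 7.01 in untreated and 7.38 in treated cells, 1.29-fold higher. The transporters for early and later loading thus differed by 2.35 and 0.37 between the same arrays.

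Clu encodes clusterin, also called apolipoprotein J, a secreted chaperone found on brain lipoproteins. It gave 7.20 for C6 glioma and 6.49 for SMiNs on the log2 scale, 1.64-fold lower, the only negative difference among the 8 genes. Lpl, which encodes lipoprotein lipase, had 3.49 in C6 glioma and 3.70 in SMiNs. Both values lay below the floor, so no fold is given. Apoc2 and Apoc1, an activator and an inhibitor of this enzyme, had signals above the floor in SMiNs while Lpl did not. Lpl was read by 1 probe set, and a signal below the floor does not show that its transcript is absent.

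**Figure D3:**
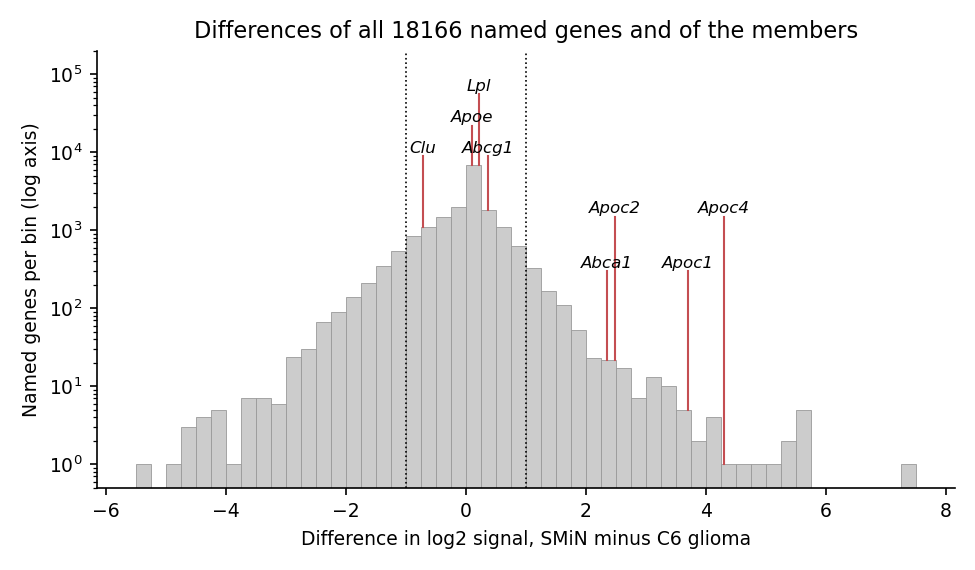
Number of named genes (y axis, log scale) by difference in log2 signal, SMiN minus C6 glioma (x axis, bins 0.25 wide), with the 8 measured genes marked by vertical lines and 2-fold by dotted lines. Abca1, Apoc2, Apoc1 and Apoc4 lie in the right tail, from 2.35 to 4.29, and Clu, Apoe, Lpl and Abcg1 lie among the bulk of genes, from -0.71 to 0.37.

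RefSeq promoter windows on GRCr8, from 250 bases before to 50 after a start site, were found for 6 of the 9 genes. Those of the 4 genes at least 2-fold higher are shown 5′ to 3′, and all lie on the minus strand. The windows are chr1:88467860-88468159 for Apoc4, chr1:88478256-88478555 for Apoc1 (the farther upstream of its 2 windows), chr1:88462316-88462615 for Apoc2 and chr5:72596424-72596723 for Abca1. Capitals mark every match, on either strand, to AGGTCA (a nuclear receptor core), TGACG (the core of the cAMP response element), CTTTGA (a core bound by TCF factors, which act with beta-catenin) or TATAAA (the TATA box).
Apoc4: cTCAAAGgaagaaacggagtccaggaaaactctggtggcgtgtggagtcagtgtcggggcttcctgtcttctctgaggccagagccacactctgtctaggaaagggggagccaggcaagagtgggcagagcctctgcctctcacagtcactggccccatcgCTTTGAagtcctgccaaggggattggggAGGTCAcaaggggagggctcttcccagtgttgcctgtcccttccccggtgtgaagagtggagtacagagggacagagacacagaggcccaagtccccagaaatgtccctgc
Apoc1: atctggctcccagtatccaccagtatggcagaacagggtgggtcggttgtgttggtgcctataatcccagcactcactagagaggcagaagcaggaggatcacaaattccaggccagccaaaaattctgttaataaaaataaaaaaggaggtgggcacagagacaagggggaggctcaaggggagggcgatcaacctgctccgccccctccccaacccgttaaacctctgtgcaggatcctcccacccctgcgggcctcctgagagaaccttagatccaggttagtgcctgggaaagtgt
Apoc2: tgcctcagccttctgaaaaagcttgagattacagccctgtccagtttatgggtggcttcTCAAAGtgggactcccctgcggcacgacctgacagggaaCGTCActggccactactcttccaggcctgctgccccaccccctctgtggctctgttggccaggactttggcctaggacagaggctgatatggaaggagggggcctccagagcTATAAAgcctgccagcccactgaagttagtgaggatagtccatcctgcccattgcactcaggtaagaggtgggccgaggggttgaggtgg
Abca1: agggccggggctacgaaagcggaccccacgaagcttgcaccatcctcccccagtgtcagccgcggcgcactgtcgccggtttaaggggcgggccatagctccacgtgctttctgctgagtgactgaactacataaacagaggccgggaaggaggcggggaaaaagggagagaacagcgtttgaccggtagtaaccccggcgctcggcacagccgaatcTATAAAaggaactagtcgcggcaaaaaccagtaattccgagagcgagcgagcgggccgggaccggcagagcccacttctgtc

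The 4 windows had no motif in common. Apoc4 held AGGTCA, starting 61 bases before the start site, and 16.2% of 33469 such windows in the rat RefSeq table hold it on either strand. Apoc4 and Apoc2 held the TCF core, which 16.1% of windows hold. Apoc2 held the cAMP response element core on the minus strand of the window, starting 152 bases before the start site, and 21.2% of windows hold that core. Apoc2 and Abca1 held a TATA box, starting 40 and 32 bases before the start site, a motif that 14.2% of windows hold. No match to any of these was found in the windows of Apoc1, shown above, or in the 3 windows of Apoe. The repeat of this core with 4 bases between, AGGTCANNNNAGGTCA, which LXR with its partner RXR binds, was searched on both strands. An exact match is in 2 of the 33469 windows, none of them of these genes. Only exact letters were searched, so a repeat with changed letters would be missed. The search therefore cannot show whether a window, that of Abca1 included, lacks an LXR site. The core AGGTCA is part of this repeat, and the other motifs share no letters with it at the matches found. A match here is a description of letters in a short window.

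The wider pathway was examined in 7 lists, which hold 109 distinct genes besides the 9, of which 94 were measured. Past 2-fold, 4 of these were higher and 9 lower in SMiNs, and with the floor applied 4 and 7. The median difference of the 94 genes was 0.00, as it was for all named genes. For 19 of the 94 the deposited values were identical, as for 19.9% of all probe sets, and an equal value is not read as an unchanged transcript.

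Among 12 other apolipoprotein genes the median difference was 0.00, and 1 passed 2-fold upward and 0 downward. The higher gene was Apool, with 6.63 in C6 glioma and 7.97 in SMiNs, 2.52-fold higher, and its product is a subunit of the complex that shapes mitochondrial cristae and not a known part of plasma lipoproteins. Apob, the core protein of very low density lipoprotein, had 3.39 and 3.64, and Apoa4 had 4.63 and 4.86, all below the floor. The floor was not reached on either array by 7 of the 12.

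Among 19 genes for lipoprotein receptors and their regulators the median difference was -0.08, with 1 gene past 2-fold upward and 3 downward. Lrp4, a receptor that also acts at neuromuscular synapses and in Wnt signaling, had 7.18 in C6 glioma and 8.51 in SMiNs, 2.50-fold higher. Lrp5, a Wnt co-receptor, was 3.17-fold lower. Scarb1, a receptor for high density lipoprotein, was 2.02-fold lower, and the third, Olr1, lay below the floor on both arrays. The receptors that take up apoE particles differed by less. Lrp1 had 9.37 in C6 glioma and 9.35 in SMiNs. Vldlr had 9.26 and 9.08, and Lrp8, also called apoE receptor 2, had 8.12 and 7.15.

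The 13 genes for lipases and their partners had a median difference of -0.02, with 2 past 2-fold upward and 1 downward. Lcat, the enzyme that esterifies cholesterol on particles and is activated by apolipoproteins, had 7.23 in C6 glioma and 8.78 in SMiNs, 2.93-fold higher. Mgll, which encodes monoacylglycerol lipase, was 2.22-fold higher. Sel1l, a factor of ER quality control that lipoprotein lipase needs to leave the ER, was 2.06-fold lower. Gpihbp1, which anchors lipoprotein lipase on capillaries, had 5.48 and 5.45.

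For sterol transport and storage, 18 genes had a median difference of 0.06, and 0 passed 2-fold upward and 1 downward. The lower gene was Abcg4, a relative of Abcg1 in brain, at 5.72 in untreated and 4.50 in treated cells, at least 1.77-fold lower against the floor. Abca7, the closest relative of Abca1 in the list, had 7.12 and 7.14. Npc1, which releases cholesterol from lysosomes, had 7.19 and 7.96.

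LXR, its partners and PPARs gave 11 measured genes with a median difference of 0.00, of which 0 passed 2-fold upward and 1 downward. The lower gene was Ncor1, a corepressor of nuclear receptors, at 8.37 in untreated and 7.19 in treated cells, a 2.26-fold lower signal. Quantile normalization brought Ncor1, Scarb1 and Sel1l under 2-fold, at -0.97, -0.79 and -0.86. Nr1h2, which encodes LXR beta, had 8.28 and 8.69, and Nr1h3, which encodes LXR alpha, had 5.20 and 5.26. The 10 other LXR target genes measured differed by -0.92 to 0.55, so that 0 reached 2-fold in either direction in the deposited values, with a median difference of 0.00. Of these 10, 3 lay below the floor on both arrays and 3 had equal values, and under quantile normalization Pltp, a phospholipid transfer protein gene, passed 2-fold downward, at -1.01. Srebf1, a lipid synthesis regulator that LXR induces, had 5.19 in C6 glioma and 5.07 in SMiNs, and Mylip, which directs LDL receptor degradation, had 5.49 on both arrays. Of the members named above as LXR targets in macrophages, Abca1 and the Apoc genes were at least 2-fold higher. Apoe and Abcg1, with differences of 0.10 and 0.37, were not. Lpl, which is outside this tally, lay below the floor on both arrays. Of the 10 other LXR targets, 0 were at least 2-fold higher. A part of LXR in these differences was not tested.

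In fatty acid uptake and lipid droplets, 0 of 16 genes passed 2-fold upward and 3 passed it downward, with a median difference of 0.08. Plin2, which coats lipid droplets, had 9.37 in untreated and 7.18 in treated cells, 4.56-fold lower. Acsl1 and Acsl4, which activate fatty acids with coenzyme A, were 3.29-fold and 2.79-fold lower.

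**Figure D4:**
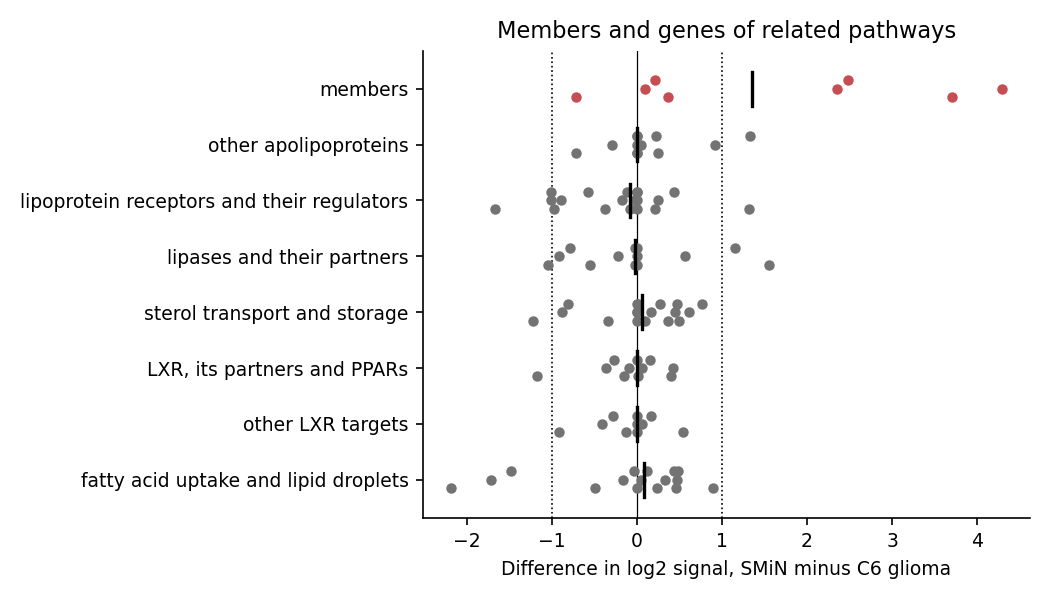
Difference in log2 signal, SMiN minus C6 glioma (x axis), of the 8 measured genes ("members", red) and of the measured genes of 7 related lists (gray), 1 point per gene; black bars are list medians and dotted lines mark 2-fold. The bar of the 8 genes lies at 1.36 in a gap between 4 genes at 0.37 or less and 4 at 2.35 or more, and the bars of the other lists lie between -0.08 and 0.08.

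Macrophages, astrocytes and adipocytes also express many of these genes, and their markers were read on the same arrays. Of 12 microglia and macrophage markers, 0 differed by at least 2-fold, 9 lay below the floor on both arrays, among them Ptprc, Itgam, Csf1r and Tyrobp, and the summed linear signal of the list was 278.5 in C6 glioma and 273.3 in SMiNs. The rest were Trem2, with 5.76 on both arrays, C1qa, with 5.05 in C6 glioma and 4.93 in SMiNs, and Cd68, with 4.95 and 4.49. Trem2 and C1qa were above the floor on both arrays, and Cd68 in C6 glioma only. Of 6 adipocyte markers, 0 differed by at least 2-fold and 5 lay below the floor on both arrays, among them Adipoq and Fabp4, with sums of 95.6 and 107.8. The remaining adipocyte marker, Plin1, had 4.68 in C6 glioma and 5.16 in SMiNs, above the floor in SMiNs only. Of 7 astrocyte markers, 1 was at least 2-fold higher, the glutamate transporter gene Slc1a2, at least 6.16-fold, with sums of 1028.1 and 1640.9. Of the others, S100b had 9.28 in C6 glioma and 10.06 in SMiNs, 1.72-fold higher, and Fgfr3 had 5.59 and 6.25, 1.58-fold higher. Gja1 had 7.88 and 7.90, Gfap had 5.97 and 5.40, and Aqp4 and Slc1a3 lay below the floor on both arrays. Such a sum follows its brightest probe sets, S100b for the astrocyte list, and those of the macrophage and adipocyte lists are mostly of genes below the floor. By the paper's staining, a minority of the cells in SMiN cultures were positive for GFAP protein after 35 days. The part of astrocyte-like cells in the signals of Abca1 and the Apoc genes was not tested, and fewer cells of a type and less RNA per cell cannot be told apart in such samples.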

How the data were processed

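Total RNA of 1 C6 glioma culture and 1 SMiN culture was amplified and labeled with a whole-transcript kit, hybridized to Affymetrix arrays, scanned and analysed by the authors with GeneChip Command Console. The deposited unit is the log2 signal of a probe set. How it was summarized and normalized, and on which genome build, is not given in the sources used here. Values were used as deposited. The number of arrays limits the precision.

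Probe sets were named from the platform annotation. Of 36685, 18511 had 1 symbol, 575 had several and 17599 were unnamed here, and 18394 of the 18511 were found in a RefSeq gene table of GRCr8, with 0 symbols changed. A gene with more than 1 probe set was read from its brightest by mean. A difference is SMiN minus C6 glioma, and 2-fold was the threshold. The members and the 12 lists (140 names) were chosen with earlier results of these data known. Named genes were the members, up to 4 genes each way at least 2-fold apart in each list, cluster neighbors and the 2 genes next to Apoc4 and Clu on each side by difference. Other list genes, and the marker genes, were named for their role, after values were seen. Alternatives were median centring, quantile normalization, applying the floor to all values, averaging probe sets of a gene, a filter on low values and a 4-fold threshold. The calling code was tested on simulated data without noise, 18166 genes on arrays alike but for known shifts, and called 100 of 100 genes shifted by 1.5 and 0 of 100 shifted by 0.5 on the log2 scale. This checks the code and not the precision of the arrays. Python 3.11.15, numpy 2.4.6, pandas 2.3.3 and matplotlib 3.10.9 were used.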

Additional observations from a re-analysis of the deposited data

How the results depend on the processing

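The count of 4 genes at least 2-fold higher and 0 lower was the same under median centring, quantile normalization, the floor applied to all values, probe sets averaged, the filter on low values and the 4-fold threshold. Averaging could change neither this count nor any single value, because each of the 8 genes has 1 probe set. The filter removes only Lpl, so it could not change the count either. The floor could not move Apoe, Clu, Abca1 or Abcg1, which lay above it on both arrays. Of 32 values of single genes under alternatives, 29 moved by less than 0.40, the SD of the differences of receptor probe sets, used because there are no replicates, and 0 changed sign. The other 3 were the Apoc genes with the floor applied, at 3.63 for Apoc4, 2.22 for Apoc1 and 1.52 for Apoc2, which replaces values below the floor by construction. The median difference of the 8 genes became 0.95 with the floor applied, and 2.35 without genes that missed the floor on both arrays, which removes Lpl. The share of all named genes past the threshold was 0.633% higher and 1.35% lower at 4-fold, and 13.0% lower without genes that missed the floor on both arrays. Against the floor, Apoc2 did not reach 4-fold. In the 7 lists, 4 higher and 9 lower genes became 4 and 10 under centring, which added Lrp8 (-1.03). They became 5 and 7 under quantile normalization, which added Apoo (1.13) and Pltp (-1.01) and dropped Ncor1, Scarb1 and Sel1l. Centring moved the median of all genes by -0.06. No paired analysis was possible because each condition has 1 array, and no array could be left out. Depth does not apply to arrays, and signals of the Apoc genes in C6 glioma and of Lpl on both arrays were limited by background.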

Other observations

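The genes next to Apoc4 by difference were named by a fixed rule, with closeness of 1 difference over 2 arrays as the measure of likeness. Just above it were Gsta1, a glutathione transferase, with 4.69 in C6 glioma and 9.52 in SMiNs, and Enpp2, which encodes autotaxin, with 4.90 and 9.49. Just below it were Cyp3a9, a cytochrome P450, with a difference of 4.23, and Prxl2a, with 4.47 and 8.64. The genes next to Clu were Stx11, Znfx1, Grap2 and Gltp, with differences of -0.71 to -0.72.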
